A study of Mus musculus with 18 samples.

Results

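The genes described here are those of the collagens and laminins, together with fibronectin, Sparc, tenascin-C, thrombospondins, nidogens and lysyl oxidases, in mouse liver cells exposed to pemafibrate. They were chosen by name (Col, a number, a and a number; Lama, Lamb or Lamc and a digit; and Fn1, Sparc, Tnc, Thbs1, Thbs2, Nid1, Nid2, Lox, Loxl1 and Loxl2). A mean signal of at least 10 over all 18 libraries was also required. Of 65 genes with such names, 33 passed that minimum: 19 of 44 collagens, 8 of 11 laminins and 6 of the other named genes. Over the whole data set 13258 of 35551 genes passed.

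The cells were AML12, a non-transformed hepatocyte line from a mouse that carried a TGF-α transgene, so every library comes from 1 line. They had been brought into a common circadian rhythm and were then given pemafibrate, a fibrate drug that activates PPARα selectively, or its solvent DMSO. Exposure to either lasted from T0 to T24 (the 24-h window, the study's reference), 6 h from T14 (the day window, harvested at T20) or 6 h from T24 (the night window, harvested at T30). Each of the 6 groups has 3 libraries. The line and its synchronization were common to all groups. Nothing in the labels ties the replicate numbers to separate cultures, so p-values measure only how far these libraries spread, and that may be technical.

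Collagens are triple helices of 3 chains. Fibril-forming collagens give tensile strength, collagen IV and laminins build the sheet-like basement membrane that nidogen ties together, and FACIT collagens such as collagen XII sit on the surface of fibrils. In liver most fibrillar collagen is made by stellate cells and fibroblasts, while hepatocytes secrete fibronectin into plasma and matrix. Laminins are trimers of an alpha, a beta and a gamma chain. Lysyl oxidases cross-link collagen, and Sparc, tenascin-C and thrombospondins modulate how cells attach to matrix.

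The normalized signal of a library summed to 31461977 to 33884634, with an unknown read depth behind it. Of 18 hepatocyte markers 12 passed the minimum, among them Alb, Apob, Trf, Ttr and Hnf4a, while Apoa1, Apoa2, Ahsg, Asgr1, F2 and Fgg did not. Of 13 markers of stellate cells and fibroblasts 4 passed (Acta2, Des, Tagln and Vim). Lrat, Pdgfra, Pdgfrb, Thy1 and Tcf21 lay below the minimum and Hand2 was at 0 in every library. In such bulk RNA, fewer cells of a type and less RNA per cell cannot be told apart.

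Shown first are the 250 bases before the start of 4 members whose levels differed between replicate numbers. In Nid1 and Col6a1 number 2 stood clear of both other numbers, and Col4a5 and Col4a6 are neighbours read in opposite directions. The sequences are RefSeq's for the build GRCm38.p6, and capitals mark a match to a searched motif. That motif is GGGCGG, the GC box, in Nid1 (chr13:13437352-13437601, plus strand), Col4a5 (chrX:141475169-141475418, plus strand) and Col4a6 (chrX:141474077-141474326, minus strand, as its complement). In Col6a1 (chr10:76726045-76726294, minus strand) it is TGANTCA, the AP-1 site.
Nid1: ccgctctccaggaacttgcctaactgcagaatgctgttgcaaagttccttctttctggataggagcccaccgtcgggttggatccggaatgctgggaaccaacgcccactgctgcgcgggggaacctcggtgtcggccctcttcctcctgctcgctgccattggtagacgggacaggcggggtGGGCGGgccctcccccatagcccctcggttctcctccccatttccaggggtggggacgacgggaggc
Col6a1: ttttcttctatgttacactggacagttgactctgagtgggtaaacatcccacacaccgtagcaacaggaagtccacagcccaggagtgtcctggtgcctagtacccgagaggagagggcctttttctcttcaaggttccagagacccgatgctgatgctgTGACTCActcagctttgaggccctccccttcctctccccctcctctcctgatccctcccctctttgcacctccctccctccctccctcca
Col4a5: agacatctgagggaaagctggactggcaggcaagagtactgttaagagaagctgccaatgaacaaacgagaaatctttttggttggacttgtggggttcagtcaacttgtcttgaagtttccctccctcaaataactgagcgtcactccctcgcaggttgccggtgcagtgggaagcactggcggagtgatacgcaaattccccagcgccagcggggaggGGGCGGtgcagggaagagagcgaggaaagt
Col4a6: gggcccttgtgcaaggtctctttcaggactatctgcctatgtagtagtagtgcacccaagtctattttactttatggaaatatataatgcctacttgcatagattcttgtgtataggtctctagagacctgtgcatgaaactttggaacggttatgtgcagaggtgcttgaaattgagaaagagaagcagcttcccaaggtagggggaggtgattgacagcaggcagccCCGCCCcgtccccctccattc

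The RefSeq table held such a window for 21 of the 33 members, 24 windows in all, and each motif was searched on both strands. Col12a1 was among the members without a window, so nothing here describes its promoter. GGGCGG stood in 14 of the 24 and in 32.7% of all 32851 windows. TGANTCA stood in 1 (Col6a1) and in 6.75% of all, and TATAAA in 3 and in 12.4%. The half-site AGGTCA of nuclear receptors stood in 3 (Col20a1, Col4a4 and Col7a1) and in 14.02% of all. The PPAR response element, that half-site repeated 1 base apart, stood in 0 of the 24 and in 0.0335% of all. The circadian E-box CACGTG stood in 0 and in 6.02% of all. The starts of Col4a1 and Col4a2 lay 21 bases apart on opposite strands, and those of Col4a5 and Col4a6 lay 1343 bases apart.

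The highest levels belonged to Col18a1, Fn1, Sparc, Col4a1 and Col4a2, and the lowest to Col1a1, Lamb1 and Lamc3. Levels between genes are given as normalized signal per kb of the longest coding transcript, as the median of the 9 DMSO libraries. Col18a1, the core protein of a basement membrane proteoglycan that yields endostatin, had the highest level at 4425 (3793 to 4828). Fn1, fibronectin, followed at 4330 (2959 to 6679), and Sparc, a secreted collagen-binding glycoprotein, at 3278 (2718 to 3786). Fn1 overlapped both others, so its place in the order is not firm. The Col18a1 range lay just above that of Sparc, and so small a gap depends on the transcript length used, so that order is not firm either.

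Among collagen IV chains, Col4a1 (2771) and Col4a2 (1700) were far above Col4a5 (159). Col4a3, Col4a4 and Col4a6 lay between 7.90 and 8.39. The ratio of Col4a1 to Col4a2, which combine in the commonest collagen IV trimer, was 1.65 as the median of 18 libraries and stayed between 1.52 and 1.86. That of Col4a5 to Col4a6 was 20.6 and ranged from 14.7 to 29.4. As a description over the 18 libraries, with each value taken from its group's mean, Col4a1 and Col4a2 had a Pearson r of 0.91 and Col4a5 and Col4a6 one of 0.60.

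Of the laminins, Lamb2 (1578), Lamc1 (1312) and Lama5 (1312) had like levels, the chains of one trimer. The ratio of Lama5 to Lamc1 per kb was 1.07 and ranged from 0.86 to 1.53 over the 18 libraries. Lamb1, the other widespread beta chain, had a median of 4.44, and Lamc3 was the lowest member of all at 3.74. Lamb3, a beta chain of epithelial laminin, stood at 302, while Lama3, an alpha chain of such laminins, had a mean signal of 1.77 and did not pass the minimum.

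Collagen I, the main collagen of scar tissue, was close to absent: Col1a1 had a level of 5.24 per kb and Col1a2, its partner chain, a mean signal of 1.07. Col3a1 had a mean of 0.65, Col5a2 one of 0.22, Col6a2 one of 2.44 and Col6a3 one of 2.02, all below the minimum. Their partner chains Col5a1 (15.9 per kb) and Col6a1 (30.8 per kb) passed. Collagens I, V and VI were thus each represented by a single chain past the minimum. Lox, the lysyl oxidase of fibrillar collagen, had a mean signal of 0.055, whereas its relative Loxl2 stood at 356 per kb. Just inside the minimum were Lamc3 (mean signal 22.1), Col9a3 (25.6) and Lamb1 (31.6), and just outside were Col9a1 (8.61), Loxl1 (8.50) and Col2a1 (7.88).

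**Figure D1:**
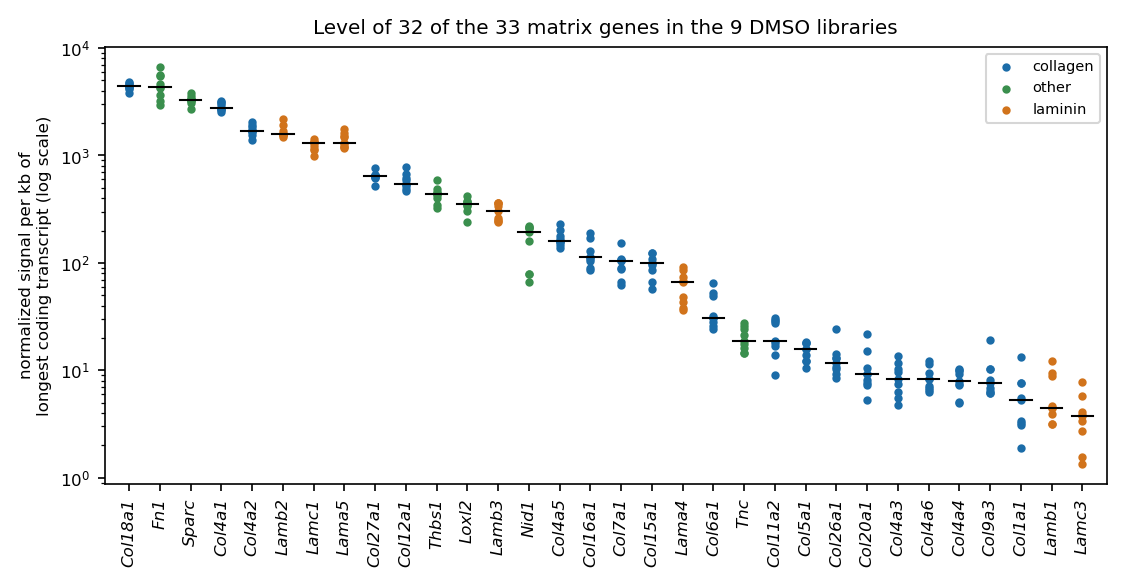
Level of 32 of the 33 matrix genes in the 9 DMSO libraries, as normalized signal per kb of the longest coding transcript on a log scale. Each point is a library, each bar the median, and colours give collagens, laminins and others; medians run from 4425 for Col18a1 to 3.74 for Lamc3.

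Over all windows 1 matrix gene passed the test between pemafibrate and DMSO, Col12a1, which was higher with pemafibrate when libraries were paired by replicate number. The other 32 did not pass, and no member passed in a single window. Col12a1 (ENSMUSG00000032332) encodes collagen XII, a large fibril-associated collagen of tendon, skin and injured tissue. In the 24-h window its signal was 7098, 5419 and 7707 with DMSO and 7751, 6443 and 8598 with pemafibrate, in replicates 1, 2 and 3. In the day window it was 5601, 6306 and 6764 with DMSO and 6525, 7034 and 7991 with pemafibrate. In the night window it was 6306, 6036 and 9050 with DMSO and 7637, 7123 and 9887 with pemafibrate. Within each window the 2 groups overlapped: replicate 3 was high and replicate 2 or 1 was low under both treatments.

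Within every pair of the same replicate number, however, the pemafibrate library was the higher. The ratio of pemafibrate to DMSO lay between 1.09 and 1.21 in the 9 pairs. Of all genes tested, 64 of 13258 (0.483%) were higher in 9 of 9 pairs, and no other member was higher in more than 7. None was lower in 9 of 9, as 0.302% of all genes were. Group means were 6741 ± 1185 and 7597 ± 1086 (SD, n = 3) in the 24-h window, 6224 ± 586 and 7184 ± 744 in the day window, and 7131 ± 1668 and 8216 ± 1470 in the night window. The difference between means was thus smaller than the sum of the SDs in every window, and the pairing carries the result.

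**Figure D2:**
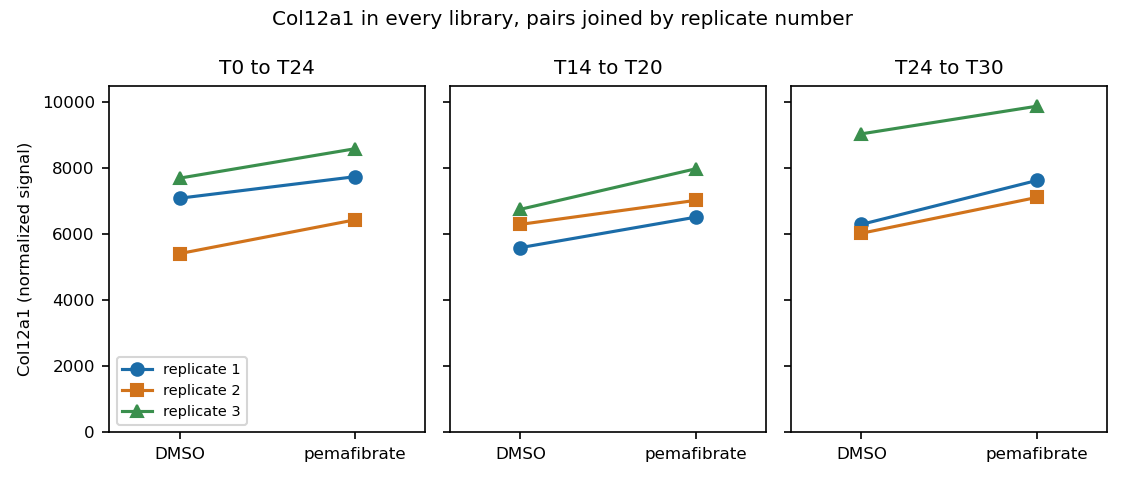
Normalized signal of Col12a1 (vertical axis, from 0) in each of the 18 libraries, with lines joining the DMSO and pemafibrate libraries of the same replicate number in each window. All 9 lines go up, from 5419 to 6443 for the lowest pair and from 9050 to 9887 for the highest, while the groups overlap.

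In the fit of a single pemafibrate effect on log2(value + 1) over the 3 windows, with the 9 pairs as blocks, Col12a1 rose by 0.20 ± 0.02 (SE), a factor of 1.15. Its adjusted p in limma was 2.2e-04, the 11th smallest of 13258 genes. Of all genes, 25 passed that test (0.189%), 24 of them higher (0.181%) and 1 lower (0.00754%), against 1 of the 33 members. The median log2 effect was −0.01 over the members and −0.00 over all genes. Without the replicate block the estimate was the same but its SE was 0.09, and adjusted p was 1.0 in limma. Col12a1 stayed past the threshold when the windows were averaged within each number (adjusted p = 0.0089 in limma). It also did without any 1 replicate number or window, where adjusted p lay between 0.0081 and 0.030.

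The windows taken alone gave estimates of like size for Col12a1, none of which passed over all genes. The log2 effect was 0.18 ± 0.04 in the 24-h window, 0.21 ± 0.03 in the day window and 0.21 ± 0.04 in the night window (SE). Adjusted p was 0.602, 0.203 and 0.527 in limma. The day effect minus the night effect was −0.01 (95% interval −0.12 to 0.11, adjusted p = 0.974 in limma). The 24-h effect differed from the day effect by −0.03 (−0.14 to 0.09) and from the night effect by −0.04 (−0.15 to 0.08), with adjusted p = 0.994 and 0.894. The bounds reach most of the size of the effect itself, so like responses are not shown.

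Among members, 0 of 33 passed in each window, where 7 (0.0528%), 2 (0.0151%) and 4 (0.0302%) of 13258 genes passed in limma. At an unadjusted p under 0.05 stood 4, 3 and 2 members in the 24-h, day and night windows, against 686, 1072 and 989 genes. The tests of the differences between windows called 0 members and 0.0% of all genes. At an unadjusted p under 0.05 there, 3 members stood for the day against the night window, 0 for the 24-h against the day window and 4 for the 24-h against the night window. Over all genes those counts were 1225, 654 and 1057.

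Col7a1 encodes collagen VII of the anchoring fibrils that fasten basement membranes to the tissue below. It had the smallest p of the members in the day window. With DMSO its signal was 996, 827 and 1424 and with pemafibrate 701, 651 and 1024, lower in each pair. The log2 difference was −0.44 ± 0.06 (SE, adjusted p = 0.115 in limma). In the 24-h window it was 976, 972 and 980 with DMSO and 903, 839 and 846 with pemafibrate, a difference of −0.18 ± 0.06 (adjusted p = 0.908 in limma). There the groups did not overlap. In the night window the pairs did not share a direction, from 579 to 953, from 611 to 468 and from 803 to 1250. The day effect minus the night effect was −0.77 ± 0.22 and did not pass (adjusted p = 0.393 in limma). Without replicate 2, the pair that goes the other way at night, the difference was −1.17 ± 0.09 (adjusted p = 0.0115 in limma). It was then the 1 gene called of 13258. Only night pairs of one direction remain in that setting, so nothing is read from it.

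The other members with the smallest p in a window had small or uneven differences. Col11a2, a minor fibrillar chain, went from 185, 174 and 166 to 145, 128 and 67.3 in the 24-h window, a log2 difference of −0.69 ± 0.20 (SE, adjusted p = 0.888 in limma). Its groups did not overlap in that window but did in both others. Nid1, nidogen-1, which links laminin to collagen IV, was 0.23 ± 0.08 in the day window (adjusted p = 0.558). In the night window, Col27a1, a fibrillar collagen of cartilage, was 0.12 ± 0.04 (adjusted p = 0.662) and Col18a1 0.07 ± 0.03 (adjusted p = 0.671), each higher in 3 of 3 pairs.

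Over all windows the next members by p after Col12a1 were Tnc, the matrix protein tenascin-C (−0.15 ± 0.07, adjusted p = 0.790 in limma), and Lama5 (−0.09 ± 0.05, adjusted p = 0.825). For the abundant members Fn1, Col4a1 and Sparc the common effect had a narrow interval around 0, unlike that of Col12a1. It was 0.02 for Fn1 (95% interval −0.04 to 0.07), 0.01 for Col4a1 (−0.03 to 0.06) and −0.03 for Sparc (−0.06 to 0.01). For Col1a1 (0.22, −0.26 to 0.70) and Lamb1 (−0.24, −0.70 to 0.23) the interval was wide. These genes had signals of 11.3 to 78.3 and of 13.3 to 70.7 per library.

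Members with the same direction in 3 of 3 pairs were about as common as among all genes. In the 24-h window, 2 were higher and 5 lower, beside 12.7% and 12.9% of all genes. In the day window, 4 were higher and 4 lower (14.6% and 16.0% of all genes), and in the night window, 7 and 4 (14.9% and 15.5%). Apart from Col12a1 no member was higher in all 3 pairs of 2 windows. Col7a1 was lower in all 3 pairs of the 24-h and of the day window. Col6a1 and Col4a4 were higher in 3 of 3 pairs in the day window and lower in 3 of 3 in the night window, and the differences between those windows, 0.27 ± 0.14 and 0.60 ± 0.24, did not pass (adjusted p = 0.557 and 0.483 in limma).

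**Figure D3:**
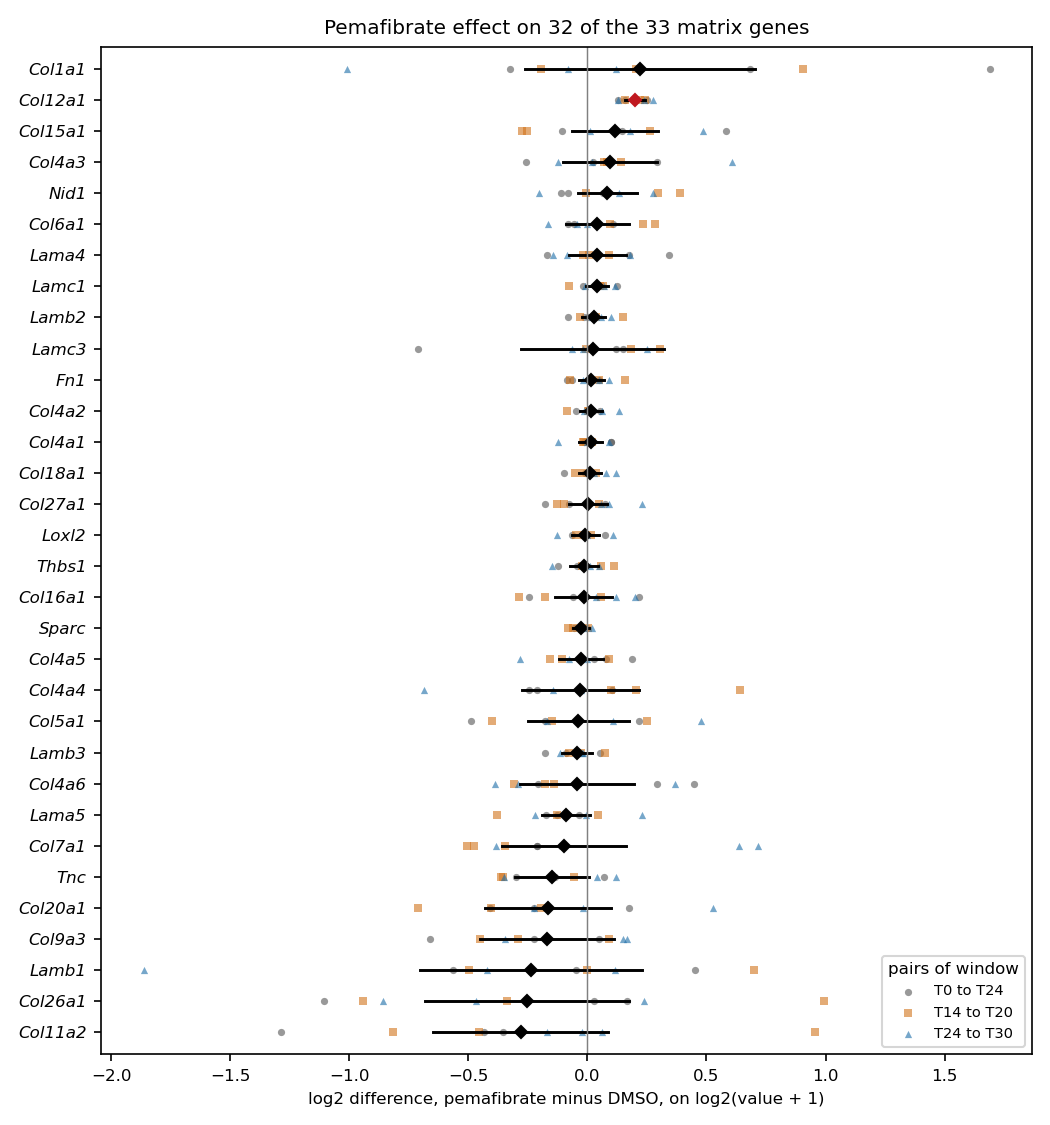
Pemafibrate minus DMSO on log2(value + 1) (horizontal axis) for 32 of the 33 matrix genes, with 1 point per pair of libraries, shaped by window, and the common effect as a diamond with its 95% interval. Col12a1, in red, has all 9 points above 0 and an interval of 0.16 to 0.24; low genes such as Col1a1, Lamb1 and Col26a1 have the widest intervals.

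Genes that fold, trim and bind collagen gave no call either. Of 18 genes of collagen folding and hydroxylation 15 passed the minimum, of 24 of collagen trimming and fibre assembly 12, and of 24 integrins and other matrix receptors 21. Of 32 matrix proteases and inhibitors 24 passed, of 21 proteoglycan and hyaluronan genes 11, and of 23 genes of TGF-β signalling and CCN proteins 21. In the common fit 0 genes of these 6 lists passed in limma. Their median log2 effects were −0.01, 0.01, 0.00, −0.01, −0.03 and −0.01 in that order, beside −0.00 over all genes.

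Ltbp1, which holds latent TGF-β in the matrix, had the smallest p in those lists (0.10 ± 0.03, adjusted p = 0.263 in limma). Loxl3, a lysyl oxidase (0.18 ± 0.06), Plod2, a lysyl hydroxylase of collagen (0.14 ± 0.05), and Sdc4, the receptor syndecan-4 (−0.06 ± 0.02), each had adjusted p = 0.629. Fmod, a small collagen-binding proteoglycan, was −0.54 ± 0.20 (adjusted p = 0.674). Further genes of small p were P4ha1 (0.05), Tgm2 (0.04), Itgb6 (−0.11), Mmp15 (0.11), Has3 (0.19) and Tgfbr3 (−0.11), with adjusted p from 0.693 to 0.842.

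The genes whose levels ran most closely with Col12a1 lay outside the matrix group. Over the 18 libraries, with each log2 value taken from its group's mean, Pearson's r was highest for Macf1 (0.96), Aff1 (0.95), Amot (0.94), Pikfyve (0.94) and Aqr (0.94). These libraries share replicate numbers, so the likeness describes differences between numbers. The common pemafibrate effect of these 5 genes lay between −0.00 and 0.07, and none passed. Among members Sparc was the most alike (0.86, rank 50 of 13257) and Col6a1 the least (−0.64). The longest coding transcript of Col12a1 has 11511 bases. The 321 genes of 10000 bases or more had a median common effect of 0.03, with a 5th to 95th percentile of −0.17 to 0.17. Of these, 1 was called, and that gene is Col12a1 itself. Under 5000 bases the median was −0.01. The part of length in the Col12a1 result was not tested.

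Many more matrix genes differed between replicate numbers than between pemafibrate and DMSO. Each contrast of numbers was taken within the 6 groups in limma, and the labels do not say what a number marks, so its p covers only the spread over treatments and windows. For number 2 against 1, 10 members were higher and 9 lower, where 22.7% and 22.4% of all genes were (45.2% in all). For 3 against 1 there were 14 and 7, beside 26.7% and 24.8% of all genes (51.6%). For 3 against 2 there were 10 and 5, beside 22.5% and 21.5% (44.0%). At least 1 contrast was passed by 27 of 33 members, beside 72.5% of all genes, so nothing particular to the members is read from it. The 6 without a call were Col27a1, Col5a1, Col11a2, Col9a3, Lamb1 and Lamc1.

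Nid1 had the largest change. Its signal ran from 1186 to 1636 (median 1307) in the 6 libraries of number 1, from 353 to 631 (483) in number 2 and from 980 to 1311 (1190) in number 3. Number 2 stood clear of both others in every group. The log2 difference was −1.52 ± 0.08 (SE) for 2 against 1 (adjusted p = 3.7e-09 in limma) and 1.33 ± 0.08 for 3 against 2 (adjusted p = 1.7e-08). Fn1 was apart in all 3 numbers, with 45603 to 55535 in number 1, 24608 to 30530 in number 2 and 34407 to 39663 in number 3. It differed by −0.86 ± 0.06 for 2 against 1 (adjusted p = 8.9e-08 in limma).

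Col6a1, a chain of the beaded-filament collagen VI, went the other way. It lay between 200 and 267 in number 2, and at 116 to 136 in number 1 and 99.6 to 125 in number 3. The differences were 0.83 ± 0.07 for 2 against 1 and −1.004 ± 0.073 for 3 against 2 (adjusted p = 6.0e-07 and 8.0e-08 in limma). Col4a5 and Col4a6, which share a trimer in some basement membranes, were both higher in number 2 than in 1, by 0.28 ± 0.09 and 0.57 ± 0.15 (adjusted p = 0.016 and 0.0071). In the 24-h window, however, Col4a5 was lower in number 2 than in 1 with DMSO (1032.5 against 1175) and with pemafibrate (1174 against 1197). Col4a6 was not higher there with pemafibrate (56.5 against 57.2). Neither gene passed in both treatments when these were fitted apart. Col15a1, a relative of Col18a1, was higher in number 2 than in 1 by 0.66 ± 0.12 (adjusted p = 5.4e-04).

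Of the collagen IV chains, Col4a3 ran from 40.5 to 62.2 in number 1, 64.4 to 83.3 in number 2 and 83.6 to 117 in number 3, without overlap between any 2 numbers. Col4a1 and Col4a2 were higher in number 3 than in 1 by 0.18 ± 0.04 and 0.27 ± 0.05 (adjusted p = 6.6e-04 and 2.7e-04 in limma). Col1a1, at low signal, was higher in 3 than in 1 by 1.12 ± 0.28 (adjusted p = 0.0038) and in 2 than in 1 by 0.92 ± 0.28 (adjusted p = 0.015). Neither passed with the pemafibrate libraries alone (adjusted p = 0.159 and 0.0735) or without the day window (0.0792 and 0.174), and the second did not in the DMSO libraries alone (0.115). Col18a1 was higher in 3 than in 1 by 0.20 ± 0.04 (adjusted p = 6.2e-04).

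The laminin chains did not move together between numbers. Lamb2 was lower in numbers 2 and 3 than in 1 (−0.33 ± 0.05 and −0.31 ± 0.05) and Lama4, the alpha chain of vessel and muscle laminins, was −0.50 ± 0.12 and −0.85 ± 0.12. Lama5 was −0.30 ± 0.08 for 3 against 1 and Lamc3, at signals of 7.89 to 45.7, 1.43 ± 0.20. Lamc1, the widespread gamma chain, was 0.07 ± 0.07. Of these, all but Lamc1 passed in limma, with adjusted p from 2.9e-05 to 0.0036. With DMSO and pemafibrate libraries fitted apart, Lama5 for 3 against 1 and Lama4 for 2 against 1 did not pass in both. In the night window with DMSO, Lama5 was higher in number 3 than in 1 (14759 against 13776).

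Of the adhesive glycoproteins and enzymes, Thbs1, thrombospondin-1, was higher in number 3 than in 2 by 0.49 ± 0.05 (adjusted p = 4.7e-06 in limma). Its ranges were 2597 to 3475 and 1898 to 2517. Tnc was higher in 3 than in 1 by 0.72 ± 0.12, Sparc by 0.14 ± 0.04, and Loxl2 lower in 2 than in 1 by 0.37 on the log2 scale (SE 0.06). Among FACIT collagens Col20a1 was −1.29 ± 0.17 and Col16a1 −0.48 ± 0.09 for 3 against 1. Col7a1 was higher in 3 than in 2 by 0.55 ± 0.14 (adjusted p = 0.0059), a call lost in the DMSO libraries alone (0.0594) and without the day window (0.105). Col26a1, at low signal, was −0.62 ± 0.25 for 3 against 1 (adjusted p = 0.046). Col12a1 was 0.29 ± 0.07 for 3 against 1 (adjusted p = 0.0020 in limma) and 0.38 ± 0.07 for 3 against 2 (adjusted p = 2.7e-04), beside its pemafibrate effect of 0.20. In the DMSO libraries alone the first of these was 0.30 and did not pass (adjusted p = 0.064).

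Complete separation of the 6 libraries of 2 numbers was seen for 9 members between numbers 1 and 2, 10 between 1 and 3, and 6 between 2 and 3. The shares among all genes were 15.7%, 20.7% and 20.4%. With DMSO and pemafibrate libraries fitted apart, Fn1 passed in both for all 3 contrasts. Nid1, Col6a1 and Loxl2 passed in both for 2 against 1 and for 3 against 2.

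**Figure D4:**
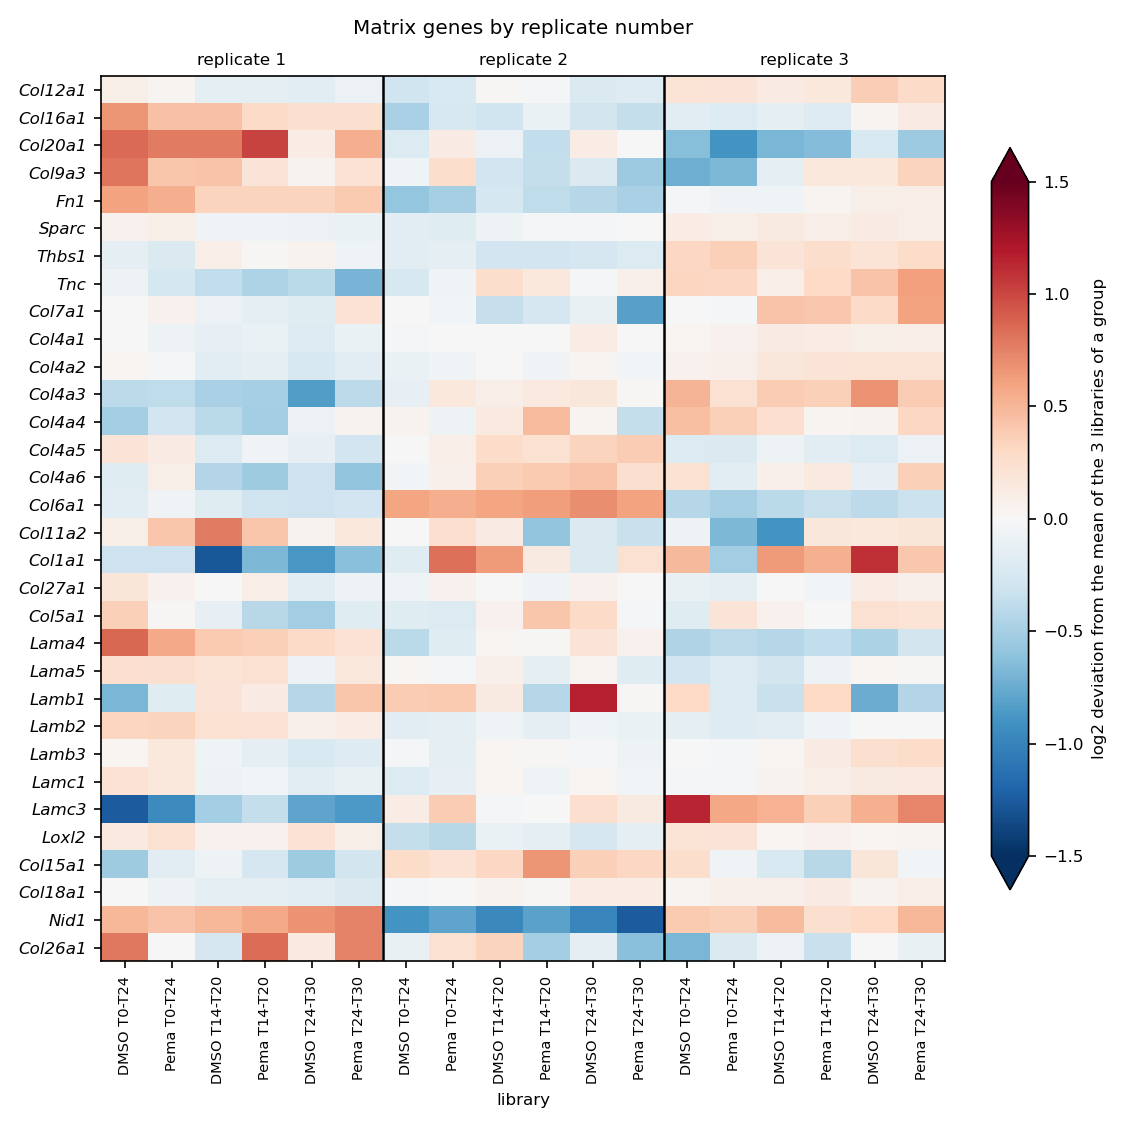
Deviation of each library from the mean of its group of 3 on log2(value + 1), for 32 of the 33 matrix genes (rows, by role) in the 18 libraries (columns, by replicate number); red is above and blue below the mean. Nid1 and Fn1 are blue and Col6a1 red throughout replicate 2. Over all genes, a DMSO column and the pemafibrate column beside it correlated at 0.31 to 0.62, and members such as Col11a2 and Lamb1 differed within single pairs.

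Cell type markers also differed between numbers. The summed signal of all 13 stellate and fibroblast markers, 4 of them past the minimum, came nearly all from Vim. It was 26204 to 28053 in number 1, 25001 to 27642 in number 2 and 31744 to 34152 in number 3. Of the 4 past the minimum, 0 were called higher and 2 lower for number 2 against 1 in limma. For 3 against 1 there were 1 and 1, and for 3 against 2 there were 3 and 0. The sum of 6 bile duct markers (Krt19, Krt7, Sox9, Spp1, Cftr and Epcam) was 51685 to 60385, 69759 to 76864 and 49643 to 54124. Most of it came from Spp1 (28984 to 60975 per library). Of the 5 past the minimum (all but Epcam), 1 was called higher and 0 lower for number 2 against 1 in limma, with a median log2 difference of 0.02. For 3 against 1 there were 1 and 3, and for 3 against 2 there were 2 and 2. The sum of all 18 hepatocyte markers was 86748 to 97421, 86861 to 100480 and 78322 to 91618. Its largest parts were Trf (37979 to 61144 per library) and Apob (18095 to 24385). Of the 12 past the minimum, 1 was called higher and 8 lower for 3 against 1 in limma, with a median log2 difference of −0.40. For 3 against 2 there were 1 and 6, and for 2 against 1 there were 1 and 4. Of all genes 24.8%, 21.5% and 22.4% were lower in that order, and 26.7%, 22.5% and 22.7% were higher. The part of cell type markers in the differences of matrix genes between numbers was not tested.

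Harvest at T20, T24 and T30 was compared in the DMSO libraries without a test, because the 3 tables were normalized separately and the length of DMSO exposure changed with the time. Differences were taken within each replicate number, and a member was counted when all 3 numbers had the same direction. From T20 to T24, 5 members were higher and 6 lower, beside 14.3% and 23.2% of all genes. From T24 to T30 there were 7 and 5 (27.5% and 16.3%), and from T20 to T30 there were 2 and 10 (21.0% and 15.9%). The pemafibrate libraries gave 2 and 10 (15.8% and 25.1% of all genes), 4 and 2 (26.9% and 13.6%), and 4 and 8 (17.9% and 12.2%). The shares over all genes depend on the scaling. With all 18 libraries rescaled to one upper quartile, they were 18% higher and 18.7% lower from T20 to T24 and 23.3% and 19.2% from T24 to T30 with DMSO. The members then numbered 5 and 6 and 7 and 6 with DMSO, and 3 and 8 from T20 to T24 with pemafibrate.

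Lamb3, the beta chain of epithelial laminin, was the clearest of the members lower at T24. With DMSO its signal was 1652, 1774 and 1772 at T20, 1212, 1163 and 1190 at T24, and 1271, 1471 and 1753 at T30. The T24 values lay below all others. The log2 difference from T20 to T24 came to −0.54 ± 0.08 (SD over 3 numbers) under DMSO and −0.60 ± 0.25 under pemafibrate. From T20 to T30 it was −0.22 ± 0.19 and −0.26 ± 0.13.

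Further members held one direction in all 3 numbers under both treatments. Loxl2, Sparc and Tnc were lower at T24 than at T20, by mean log2 differences of −0.23, −0.17 and −0.42 with DMSO and −0.22, −0.16 and −0.28 with pemafibrate. After the upper-quartile rescaling Sparc no longer had one direction in the pemafibrate libraries. Thbs1 was lower at T30 than at T24, at −0.31 ± 0.17 (SD, n = 3) with DMSO and −0.28 ± 0.12 with pemafibrate. Col4a2, Nid1 and Lamc3 were lower at T30 than at T20, by −0.17 ± 0.07, −0.24 ± 0.18 and −0.46 ± 0.28 with DMSO. Col6a1 was higher then, at 0.31 ± 0.11 with DMSO, although only at 0.03 ± 0.02 with pemafibrate. Col15a1 and Loxl2 were higher at T30 than at T24, and Col20a1 at T24 than at T20 (0.47 ± 0.10 with DMSO).

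Some of the largest differences between times with DMSO had no shared direction with pemafibrate. Col7a1 was at 996, 827 and 1424 at T20 and at 579, 611 and 803 at T30, a log2 difference of −0.68 ± 0.21 (SD, n = 3). With pemafibrate that difference was 0.08 ± 0.49, with mixed directions. Col11a2 was −0.84 ± 0.22 from T24 to T30 with DMSO and −0.19 ± 0.76 with pemafibrate. Col4a4, a collagen IV chain of kidney and other specialised membranes, was 0.57 ± 0.27 from T20 to T30 with DMSO. Col1a1 was 0.64 ± 0.58 from T24 to T30 at low signal. From T20 to T24, Col11a2 was 0.75 ± 0.76 and Col4a6 −0.32 ± 0.35 with DMSO. With DMSO, Col12a1 had no shared direction from T20 to T24, from T24 to T30 or from T20 to T30, at 0.10 ± 0.29, 0.07 ± 0.21 and 0.18 ± 0.24. With pemafibrate it was higher at T30 than at T20 in all 3 numbers, at 0.18 ± 0.15, and mixed for the other pairs of times.

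**Figure D5:**
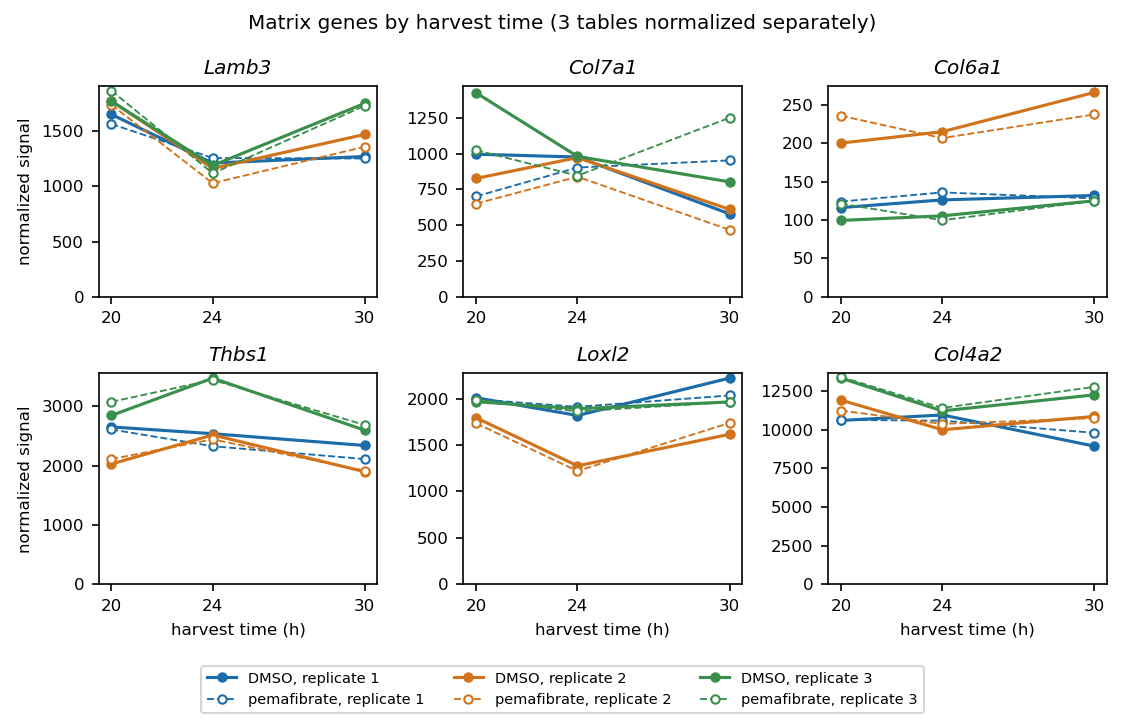
Normalized signal (vertical axes, from 0) of 6 matrix genes against harvest time in h, with filled points and full lines for DMSO and open points and broken lines for pemafibrate, coloured by replicate number. Lamb3 is lowest at T24 in DMSO, between 1163 and 1212, and the DMSO lines of Col7a1 end at 579 to 803 at T30; the 3 times come from tables normalized separately.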

How the data were processed

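Poly(A) RNA of 18 AML12 libraries was sequenced as dUTP-stranded libraries, per the labels' protocols. The authors deposited 1 table per window, and its values are normalized signal per Ensembl gene, in columns named as salmon output, per the file headers. Library totals differ by little within a table, but replicate number 3 has the highest in each of the 6 groups. With DMSO in the 24-h window they are 31461977, 32324739 and 33278987 in numbers 1, 2 and 3. Aligner, genome build and annotation are taken as not given in the sources used here. Of values up to 8 reads, 62.9% to 77.2% were whole within 0.05, so reads were not recovered and depth is unknown. Symbols matched 35181 of 35551 IDs.

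Groups and replicate numbers came from the sample titles. Analysed were genes whose mean over the 18 libraries reached 10, as log2(value + 1), which understates changes of low genes, with limma 3.58.1 in R 4.3.3 (variance trend, Benjamini-Hochberg over all genes, threshold 0.05, two-sided). Pemafibrate fits had the replicate number as a block: deviations from group means correlated at 0.31 to 0.62 in the 9 pairs of the same number and at −0.42 to −0.11 between different numbers. Deviations within a group cancel out by construction, so the negative values follow from the positive ones and add nothing to them. The common fit used 9 pairs as blocks, and differences between windows were fitted on all 18 libraries. The fits were tested on simulated data. Its noise was independent between libraries, so that test cannot show how the fits behave when libraries of one number share their spread. The members, the 6 further matrix lists and the marker lists were chosen with earlier results of these data known.

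Named were Col12a1, members past the threshold with pemafibrate, the 3 of smallest p in each pemafibrate fit, the largest changes between numbers (overall and within a role) and times, the 2 genes of smallest p in each further list and the 5 most like Col12a1, except 2 genes not reported here. Fn1, Col1a1, Col4a1, Lamb1 and Sparc were references, and other members that illustrate a role were chosen after their values were seen. Lengths are those of GENCODE M21 and promoters those of RefSeq. Other pseudocounts, filters, rescaling, no trend, no block and left-out replicates were tried.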

Additional observations from a re-analysis of the deposited data

How the results depend on the processing

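Pemafibrate called 0 members in each window under each setting run. Without the replicate block the common fit called 0 members and Col12a1 was 0.20 with adjusted p = 1.0 in limma, so that call needs the pairing by number. It held under the other settings of the common fit. The day minus night difference had 0 to 1 called members when a replicate was left out (1 without replicate 2). Of all 13258 genes it then had 0, 1 and 0 called without replicates 1, 2 and 3. The differences between windows for Col12a1 changed sign when a replicate was left out. Day minus night lay between −0.069 and 0.028, 24-h minus day between −0.088 and 0.0046, and 24-h minus night between −0.069 and 0.021. Among all genes the common fit called 25: 2 without the block, 12 with windows averaged, 19 without the trend, 12 to 17 without a replicate and 13 to 15 without a window (left out after the data had been seen). The 24-h, day and night windows called 7, 2 and 4 genes: 0 each without the block or the trend, 16, 38 and 20 without the filter, 14, 9 and 8 in a fit shared by all libraries, and 2 to 9, 3 to 7 and 1 to 7 without a replicate. The day window called 4 with a pseudocount of 5 and 6 with a minimum of 50. Contrasts of numbers called 5988, 6837 and 5839 genes: 2439, 3368 and 2723 with DMSO libraries alone, 3129, 3994 and 3322 with pemafibrate libraries alone, and 3608, 4337 and 3776 without the day window. Between numbers, the DMSO libraries alone called 7, 12 and 8 members for 2 against 1, 3 against 1 and 3 against 2, and 2 against 1 called 11 without the day window. Col12a1 was then −0.20 for 2 against 1 (adjusted p = 0.035 in limma), and 0.029 without the 24-h window. The pemafibrate libraries had 2 members higher and 10 lower from T20 to T24, 4 and 2 from T24 to T30, and 4 higher from T20 to T30. The causes were not tested. Of alternatives for single genes, 327 kept direction and call, 14 lost the call, 2 gained it and 5 reversed. Low signal limits Col1a1, Lamb1, Lamc3 and Col26a1, whose intervals are wide.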

Other observations

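Genes that make and bind matrix were present, while several of the elastic fibre were not. P4hb and Serpinh1, a prolyl hydroxylase subunit and a collagen chaperone, had median signals of 23869 and 15795 over the 18 libraries. Crtap and Fkbp10, which act on collagen, had medians of 4.36 and 1.89 and were below the minimum. Of the elastic fibre genes, Eln had a median of 1.41 and Fbn1 one of 3.05, and Fbln5, Mfap2 and Mfap5 one of 0, whereas Efemp2 had 2429 and Fbln2 had 8530. Among receptors Itgb1, the integrin beta chain for collagen and laminin, had a median of 32369 and Itga3, its laminin-binding partner, 18914. Itga11, a collagen-binding integrin of fibroblasts, had 1.00. These genes were chosen after their values were seen, and signals not taken per length describe presence only.

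Replicate numbers also differed in these lists. For number 2 against 1 in limma, where 22.7% of all genes were higher and 22.4% lower, 4 of 15 folding genes were higher and 4 lower. The counts were 5 and 4 of 12 for trimming and assembly, 7 and 7 of 21 for receptors, and 6 and 4 of 24 for proteases and inhibitors. Proteoglycan genes gave 1 and 5 of 11, and TGF-β and CCN genes 5 and 11 of 21.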
